A study of Homo sapiens with 2 samples.

Results

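The genes described here drive a cell from G1 into S phase. They are the D cyclins CCND1 and CCND3, their kinases CDK4 and CDK6, the E cyclins CCNE1 and CCNE2 with their kinase CDK2, the CDK inhibitor CDKN1B (p27), and the transcription factors E2F1 and E2F2. They were chosen by gene symbol, with earlier results of these data known, and all 10 were found among the 13137 genes of the table. Digital gene expression, a method that sequences a short tag from each captured mRNA, had been run on A549 cells, a human lung adenocarcinoma line. One library came from A549-H1tetO-shRNA-SOX2 cells, which carry a doxycycline-inducible hairpin against SOX2, and the other from A549-H1tetO-shRNA-Con cells, which carry a scrambled hairpin. Both kinds of cells were a polyclonal pool selected with puromycin, both transcribed their hairpin from an H1 promoter under tet control, and both received doxycycline for 4 days, so a cell without hairpin or without doxycycline was not among the groups.

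In G1, mitogens raise D cyclins, which bind CDK4 and CDK6 and begin to phosphorylate the retinoblastoma protein. E cyclins with CDK2 complete this step. The E2F factors that are then released from the retinoblastoma protein transcribe genes of DNA replication and also CCNE1 and E2F genes themselves. CDKN1B and its relative CDKN1A hold cyclin E-CDK2 in check, and A549 cells are known to have lost the CDK4 and CDK6 inhibitor gene CDKN2A, which was not analysed here.

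The columns of the table carry the abbreviations SC and S1, which were read as shRNA-Con and shRNA-SOX2, and every direction given rests on that reading. The libraries held 2304184 (shRNA-Con) and 2093816 (labelled shRNA-SOX2) tags on genes. The targeted gene SOX2 had 16 tags in the shRNA-Con library against 23 in that labelled shRNA-SOX2, a ratio of 1.58 (95% interval 0.80 to 3.20). SOX2 tags were thus not fewer where the hairpin against it was named, and they do not check that reading. From 16 tags in shRNA-Con, only a count of 0 would have been called as lower at FDR 0.001, so a moderate loss was not detectable. Of 8 markers of the A549 line 7 were measured, and together they held 14597 tags per 1000000 gene tags in the shRNA-Con library against 20512 in that labelled shRNA-SOX2. The A549 markers went both ways, as KRT8, KRT19, ALDH1A1 and ALDH3A1 had more tags per 1000000 in the latter and KRT18 (4478 and 3767), AKR1B10 (2621 and 2188) and AKR1C2 (334 and 137) fewer. The 4 markers of alveolar type II cells were not analysed here. Of the markers of other cell types, 2 of 3 for blood summed to 1.74 and 3.34 tags per 1000000, 1 of 3 for endothelium to 1.30 and 0, and 1 of 3 for fibroblasts (COL1A1) to 19.1 and 20.5. There was 1 library per condition and hence no spread between replicates. For each gene, its tags and all other gene tags were set against each other in Fisher's exact test (two-sided). P-values were adjusted over all genes after Benjamini and Hochberg, and a gene was called at FDR 0.001. The test speaks of the pair of libraries and not of the conditions, and all intervals are 95% intervals that cover counting error alone.

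Of the 10 genes, 3 passed FDR 0.001. In the library labelled shRNA-SOX2, CDK6 and CCND3 were lower and E2F2 was higher. Over all 13137 genes, 21.7% passed, 12.2% as lower and 9.53% as higher, so that 3 of 10 is near the share in the whole table. The E cyclins had the largest ratios among the genes short of the threshold, with 2.66 for CCNE1, while CDKN1B, CDK2 and CDK4 had ratios between 0.879 and 1.14. The median log2 ratio of the 10 genes was 0.09, with E2F2 at its limit, against 0.02 over all genes. For the 8 members with at least 20 tags it was -0.09, against -0.10 over all genes with that many. Among the genes with at least 20 tags in both libraries together, a log2 ratio of at least 1 in size was found for 23.4%, and for 1 of the 8 members with that many tags, CCNE1. Ratios are those of tags per 1000000 gene tags, with shRNA-Con as the denominator. With edgeR's TMM factors or the median of ratios as scaling the genes called were also 3, but CCNE1 took the place of CCND3, so that 1 was lower and 2 were higher.

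The levels spanned a wide range, with the D cyclins and their kinases on top. Since each captured mRNA gives 1 tag, tags per 1000000 gene tags were compared between genes without division by length. Whether genes differ in the share of their mRNAs that gives a counted tag was not tested, so the order is one of tags. In shRNA-Con the order was CCND1 (388 tags per 1000000 gene tags), CCND3 (220), CDK4 (138), CDK6 (69.9), CDKN1B (31.7), CDK2 (10.8), CCNE1 and E2F1 (8.25 each), CCNE2 (2.17) and E2F2 (0). Neighbours in this order differed beyond counting error down to CDK2, whereas CDK2, CCNE1 and E2F1 could not be ranked, and neither could CCNE2 and E2F2. In the library labelled shRNA-SOX2 the first 5 places were taken by the same genes in the same order. There CDK6 (40.6) and CDKN1B could not be ranked, with a ratio between them of 1.27 (0.910 to 1.77), nor could CDKN1B and CCNE1 (22.0), while CCNE1 stood before CDK2 (12.4), with a ratio of 1.77 (1.07 to 2.98). E2F1, E2F2 and CCNE2, with 4.78 to 5.73 tags per 1000000, could not be ranked in that library.

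D cyclins sense mitogens, and CCND1 is the member most often amplified in cancers. CCND1 (Entrez Gene ID 595) had 894 tags in the shRNA-Con library against 913 in that labelled shRNA-SOX2, a log2 ratio of 0.17 (0.03 to 0.30) with an adjusted p of 0.0376 in Fisher's exact test. The log2 ratio of CCND1 depended on the scaling, at 0.24 with TMM factors and 0.06 with the clean tags of the whole libraries. With 894 tags in shRNA-Con, a call as higher would have needed 966 tags, a ratio of 1.19, so the depth was enough for a small change of this gene. CCND3 (896), the D cyclin best known from lymphocytes, fell from 506 tags to 346, a log2 ratio of -0.41 (-0.61 to -0.21, adjusted p = 0.000233 in Fisher's exact test). This call depended on the scaling, since the log2 ratio was -0.34 with TMM factors (adjusted p = 0.00346, short of the threshold) and -0.52 with the clean tags of the whole libraries (adjusted p = 1.36e-06). CCND3 made up 36.1% (33.6% to 38.7%) of the tags of both D cyclins in the shRNA-Con library against 27.5% (25.0% to 30.0%) in that labelled shRNA-SOX2. These shares do not depend on the scaling, and their odds ratio was 0.670 (0.566 to 0.792). The sum of both genes was 608 and 601 tags per 1000000, a ratio of 0.990 (0.916 to 1.07), whose side of 1 turned with the scaling (1.04 with TMM factors and 0.915 with clean tags). CCND2, the remaining D cyclin, was not analysed here.

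CDK4 and CDK6 are the catalytic partners of the D cyclins and can replace each other in many cells. CDK4 (1019) had 318 tags in the shRNA-Con library against 254 in that labelled shRNA-SOX2, a log2 ratio of -0.19 (-0.43 to 0.06, adjusted p = 0.239 in Fisher's exact test). CDK6 (1021) fell from 161 tags to 85, a log2 ratio of -0.78 (-1.18 to -0.40, adjusted p = 0.000218 in Fisher's exact test), and stayed past FDR 0.001 with TMM factors (-0.71), the median of ratios (-0.71) and clean tags (-0.90). Of all genes with at least 20 tags, 18.9% had a lower log2 ratio than CDK6. CDK6 contributed 33.6% (29.4% to 38.0%) of the tags of both kinases in the shRNA-Con library against 25.1% (20.5% to 30.0%) in that labelled shRNA-SOX2, an odds ratio of 0.661 (0.478 to 0.911). The sum of both kinases was 208 and 162 tags per 1000000, a ratio of 0.779 (0.676 to 0.897). Per tag of CDK4 or CDK6 there were 2.92 tags of D cyclins in the shRNA-Con library against 3.71 in that labelled shRNA-SOX2, a change of 1.27-fold (1.08 to 1.49). CDK6 (ENSG00000105810.9) lies on the minus strand of chromosome 7 from 92604921 to 92836594 in GRCh38 (GENCODE release 29). Because CDK6 held its call under each scaling, the 250 bases before the more upstream of its 2 RefSeq starts (GRCh38.p14, chr7:92836574-92836823, minus strand) are given, 5′ to 3′. No capitals appear in them, as neither the E2F nor the SOX letters described with the E2F genes were found.
CDK6: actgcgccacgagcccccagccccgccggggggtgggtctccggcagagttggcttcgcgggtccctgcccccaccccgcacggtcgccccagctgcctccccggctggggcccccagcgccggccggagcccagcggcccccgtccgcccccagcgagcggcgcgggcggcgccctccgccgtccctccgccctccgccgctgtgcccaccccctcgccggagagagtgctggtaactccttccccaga

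**Figure D1:**
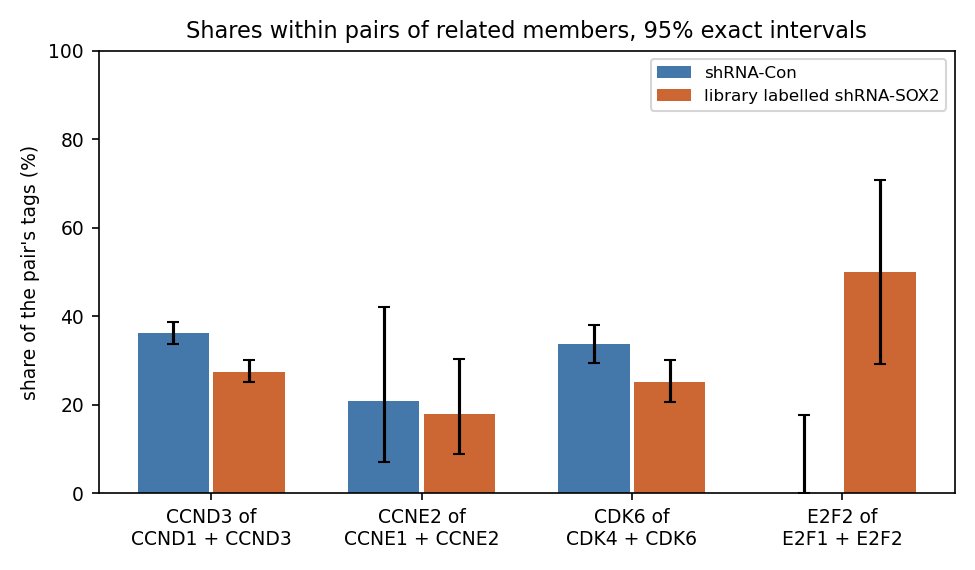
Share of the second gene in the summed tags of a pair of related genes, in percent, for the shRNA-Con library (blue) and the library labelled shRNA-SOX2 (orange). Bars show the share of 1 library each with its 95% Clopper-Pearson interval, and the shares of CCND3 and CDK6 were both lower in the library labelled shRNA-SOX2.

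E cyclins activate CDK2 at the end of G1, and their mRNAs are themselves transcribed in a pulse there. CCNE1 (898; ENSG00000105173.13, chromosome 19 from 29811898 to 29824308 in GRCh38, plus strand) had 19 tags in the shRNA-Con library against 46 in that labelled shRNA-SOX2, a log2 ratio of 1.41 (0.61 to 2.27). Its adjusted p of 0.00114 in Fisher's exact test missed the threshold by 1 tag, since 47 tags would have passed. With TMM factors the log2 ratio of CCNE1 was 1.49 (adjusted p = 0.000454), and with clean tags 1.30 (adjusted p = 0.00272). CCNE2 (9134), its paralog, had 5 and 10 tags, a log2 ratio of 1.14 (-0.54 to 3.04, adjusted p = 0.329 in Fisher's exact test), and no loss of this gene could have been called from 5 tags. Both E cyclins together had 24 and 56 tags, a ratio of 2.57 (1.57 to 4.33), and CCNE2 was 20.8% (7.13% to 42.2%) of them in the shRNA-Con library against 17.9% (8.91% to 30.4%) in that labelled shRNA-SOX2. D cyclin tags outnumbered E cyclin tags 58.3 to 1 in the shRNA-Con library against 22.5 to 1 in that labelled shRNA-SOX2. This ratio, which does not depend on scaling, was thus 0.386 times (0.227 to 0.637) that of shRNA-Con. In RNA from whole cultures, more cells in late G1 and more E cyclin mRNA per cell cannot be told apart.

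CDK2 (1017), which E cyclins and later cyclin A activate, had 25 tags in the shRNA-Con library against 26 in that labelled shRNA-SOX2, a log2 ratio of 0.19 (-0.65 to 1.05, adjusted p = 0.786 in Fisher's exact test). At this depth only a count of 3 or fewer, or of 55 or more, would have been called, so that changes smaller than about these were not detectable. E cyclins numbered 0.960 tags per CDK2 tag in the shRNA-Con library against 2.15 in that labelled shRNA-SOX2, a change of 2.23-fold (1.02 to 4.95). The change was 0.681-fold (0.370 to 1.25) for CDK4 and CDK6 together per CDK2 tag. For CDKN1B per CDK2 tag it was 0.883-fold (0.441 to 1.76), and each of these last intervals includes 1. CDKN1B (1027), the inhibitor that binds cyclin E-CDK2 and also helps D cyclins to assemble with CDK4, had 73 and 67 tags, a log2 ratio of 0.01 (-0.49 to 0.51). The adjusted p was 1 in Fisher's exact test, and the sign of the log2 ratio turned with clean tags (-0.10). CDKN1B would have been called at 30 tags or fewer or at 116 or more.

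E2F1 and E2F2 are the activator E2F factors of this set, and both bind the retinoblastoma protein. E2F1 (1869) had 19 tags in the shRNA-Con library against 12 in that labelled shRNA-SOX2, a log2 ratio of -0.52 (-1.70 to 0.59, adjusted p = 0.514 in Fisher's exact test). E2F2 (1870) had 0 tags in the shRNA-Con library against 12 in that labelled shRNA-SOX2 (5.73 tags per 1000000). With the count of 0 in shRNA-Con set to a limit of 3 tags, or 1.30 tags per 1000000, E2F2 was at least 4.40-fold higher (adjusted p = 0.000653 in Fisher's exact test). The two-sided 95% intervals are wider, since that of the level in shRNA-Con reached up to 1.60 tags per 1000000 and that of the ratio down to 3.06. The test and these intervals take the 0 as a complete count. Whether the rarest tags had been left out of the deposited counts was not tested, and a 0 could then hide tags. These 12 tags are also the fewest with which any gene of the table passed FDR 0.001, and by the test of Audic and Claverie E2F2 did not pass. The summed tags of E2F1 and E2F2 were 19 and 24, a ratio of 1.39 (0.730 to 2.68). E2F2 was 0% (0% to 17.6%) of this sum in the shRNA-Con library against 50% (29.1% to 70.9%) in that labelled shRNA-SOX2.

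E2F1 and E2F2 are known to be transcribed by E2F factors themselves, and these promoters are shown because both genes belong to that loop and held the sites searched. E2F sites were searched as TTTCCCGC, TTTCGCGC, TTTGCCGC and TTTGGCGC on both strands, in the RefSeq windows from 250 bases before to 50 bases after each start (GRCh38.p14). Of the 10 genes 7 had a window, and 2 of these 7, E2F1 and E2F2, held such a site. CCNE1, which E2F factors are also known to transcribe, had 1 window and no such site in it. Such a site was in 3.31% of all 35116 windows, and in 6.83% of the 8293 genes with at least 20 tags and a window. SOX letters, written as CTTTGTT or as CATTGTT, were in the windows of 0 of the 7 genes and in 8.22% of all windows. E2F1 holds TTTGGCGC with its first base 20 bases before the start, and TTTGCCGC on the other strand, where the match begins 33 bases before the start. E2F2 holds TTTGGCGC with its first base 42 bases before the start. The 250 bases before the start are printed 5′ to 3′ with these matches in capitals, for E2F1 from chr20:33686386-33686635 and for E2F2 from chr1:23531234-23531483, both on the minus strand.
E2F1: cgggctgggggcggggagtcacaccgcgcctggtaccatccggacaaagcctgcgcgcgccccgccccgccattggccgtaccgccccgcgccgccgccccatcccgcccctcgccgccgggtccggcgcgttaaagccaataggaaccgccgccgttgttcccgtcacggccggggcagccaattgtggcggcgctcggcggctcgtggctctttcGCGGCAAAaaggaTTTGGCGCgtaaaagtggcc
E2F2: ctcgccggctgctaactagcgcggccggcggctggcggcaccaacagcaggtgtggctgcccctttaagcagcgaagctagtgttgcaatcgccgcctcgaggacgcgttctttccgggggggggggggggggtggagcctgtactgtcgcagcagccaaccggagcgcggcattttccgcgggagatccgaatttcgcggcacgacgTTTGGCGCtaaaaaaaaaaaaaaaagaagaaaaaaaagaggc

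**Figure D2:**
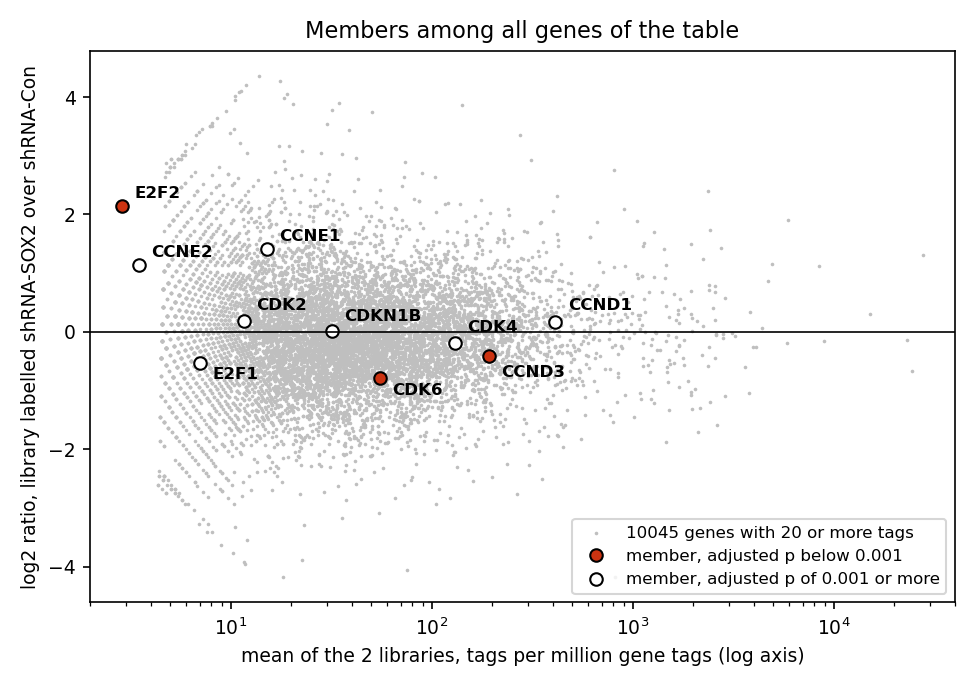
Log2 ratio, with shRNA-Con as the denominator, against the mean of both libraries in tags per 1000000 gene tags (log axis). Grey points are the 10045 genes with at least 20 tags, red points are members past FDR 0.001 and white points are the other members. E2F2 and CCNE2 stand left of the grey points, with 12 and 15 tags in all, and E2F2 is drawn against the limit of 3 tags.

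The rest of the G1/S machinery was read from a list of 34 further genes, of which 29 were measured. Of these 29, 5 passed FDR 0.001, which is 17.2% against 21.7% of the whole table, 4 of them higher and 1 lower in the library labelled shRNA-SOX2. Their median log2 ratio was 0.09 against 0.02 over all genes, and for the 24 with at least 20 tags it was -0.03 against -0.10. CDKN1A (p21), a CDK inhibitor and p53 target, rose from 696 tags to 1941, a log2 ratio of 1.62 (adjusted p = 6.88e-160 in Fisher's exact test). FBXW7, the ubiquitin ligase subunit that marks cyclin E protein for destruction, rose from 15 tags to 47, a log2 ratio of 1.79. SKP1, a shared subunit of such ligases, rose from 1246 tags to 1465 (0.37). CDKN1A thus passed the test, whereas the ratio of its relative CDKN1B had an interval of 0.714 to 1.43. RB1, the retinoblastoma gene, named after its values were seen, had 60 and 58 tags, a log2 ratio of 0.09 that did not pass.

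The other E2F genes were called in both directions. E2F5, a repressor E2F that works with RB1 relatives, fell from 138 tags to 49, a log2 ratio of -1.36 (adjusted p = 2.81e-08 in Fisher's exact test), and E2F6, a repressor that does not bind the retinoblastoma protein, rose from 95 to 149 (0.79, adjusted p = 0.000157 in Fisher's exact test). In shRNA-Con E2F5 had the most tags of the E2F genes measured, and in the library labelled shRNA-SOX2 E2F6 did. E2F6 was short of the threshold with clean tags. E2F3, the third activator, named here after its values were seen, had 21 and 48 tags, a log2 ratio of 1.33 (adjusted p = 0.00118 in Fisher's exact test) that passed with TMM factors. E2F4, E2F7 and E2F8, also named after their values were seen, had 50 and 29, 30 and 42, and 4 and 4 tags, and none passed.

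Genes that E2F factors are known to transcribe were read from a list of 25, all measured. Of these, 8 (32%) passed FDR 0.001, 6 higher and 2 lower, against 21.7% of the whole table (9.53% higher and 12.2% lower). All 25 had at least 20 tags, as had 10045 of the 13137 genes, and no gene with fewer than 12 tags in all was called. The share of the whole table is thus not one of genes at like depth, and the calls alone do not set this list apart. The median log2 ratio of the 25 genes was -0.02 against -0.10 over all genes with at least 20 tags. Among the higher genes were TYMS, the enzyme that makes thymidylate, with 227 and 436 tags (log2 ratio 1.08), the helicase subunits MCM4 (38 and 83, 1.27) and MCM2 (57 and 97, 0.91), the reductase subunit RRM1 (172 and 269, 0.78) and the sliding clamp PCNA (243 and 355, 0.68). The 2 lower genes were MYBL2, a transcription factor of the cell cycle, with 41 and 10 tags (-1.90), and SLBP, which binds histone mRNA, with 173 and 79 (-0.99). Named after their values were seen, RRM2, the partner of RRM1, had 93 and 82 tags and did not pass, nor did the remaining MCM subunits of the list, with log2 ratios from -0.02 for MCM3 to 0.66 for MCM6. TYMS overlaps the antisense gene ENOSF1, and whether tags were counted by strand is not given in the sources used here. With clean tags MCM2 was short of the threshold and the other 7 passed.

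**Figure D3:**
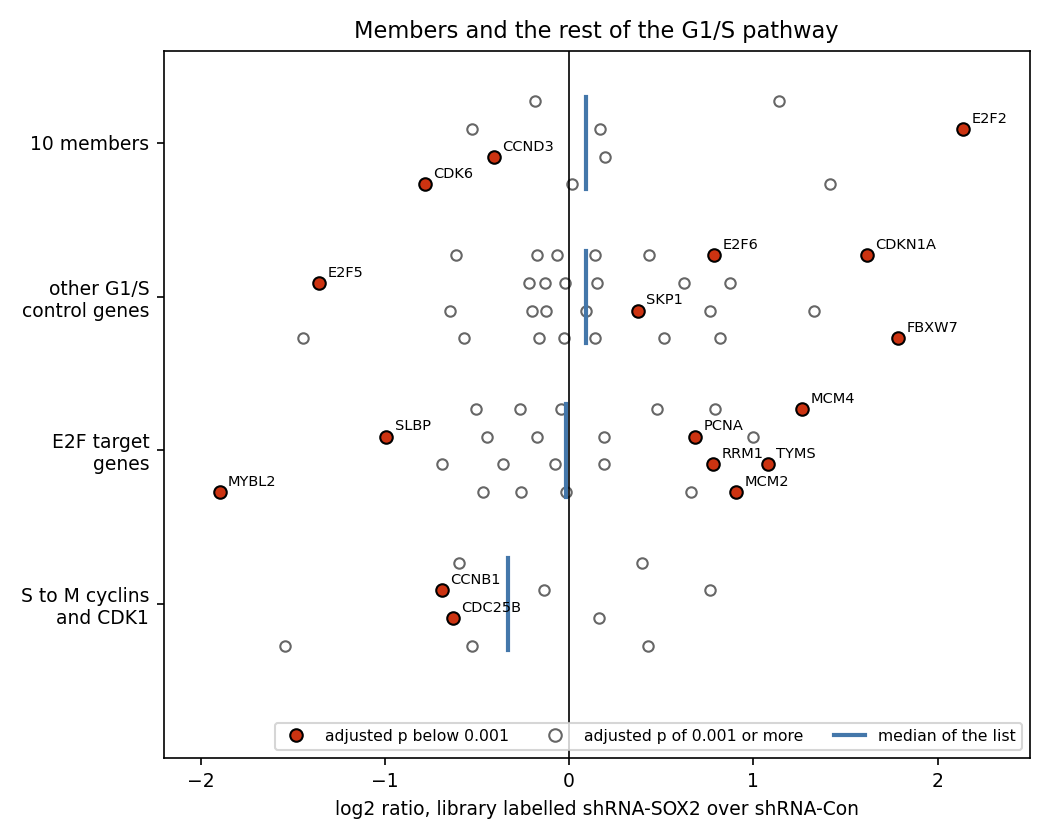
Log2 ratio, with shRNA-Con as the denominator, of the 10 members and of the measured genes of 3 further lists, 1 point per gene, except 1 called E2F target gene that is not shown. Red points passed FDR 0.001 and are named, white points did not, and the blue bar is the median of the list. The vertical place of a point within its list has no meaning. In the first 3 lists red points lie on both sides of 0, and in the lowest list both red points lie to the left.

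These calls depended on the spread assumed between cultures. Fisher's exact test takes it as 0. When edgeR's exact test was given a coefficient of variation of 0.1 between cultures, 0 of the 10 members passed FDR 0.001, with 3 at an unadjusted p under 0.05. CDKN1A, E2F5 and TYMS were the genes of the other lists that passed.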

How the data were processed

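Digital gene expression tags were measured in 1 library each of A549 cells with shRNA-SOX2 and shRNA-Con, from 4 µg of total RNA. The authors deposited raw tag counts per Entrez Gene ID, and a TPM that the authors scaled to all clean tags, with 0 written as 0.01. The TPM served only to derive the clean tags (3516266 for shRNA-Con, 3456234 for that labelled shRNA-SOX2, with 65.5% and 60.6% on genes). The submitters' processing notes name the build hg19, and the aligner is not given in the sources used here. The deposited columns of log2 ratios, p-values and FDR compare both libraries and were not used.

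Counts were divided by the total of gene tags, with counts below 3 set to 3 for ratios. Fisher's exact test was adjusted over 13137 genes, including 19 rows with an ID but no symbol (0.0535% and 0.0372% of gene tags). Intervals are 95% Clopper-Pearson for ratios and shares, Poisson for levels, and conditional exact for odds ratios and for changes of a ratio within libraries. The limit of 3 tags for a count of 0 is 0.00013% of the gene tags in shRNA-Con. A count that would have been called is one whose raw p reaches the largest that passed. Alternatives were TMM factors, the median of ratios, clean tags, 10 tags as a minimum, Audic and Claverie's test, assumed coefficients of variation of 0.1, 0.2 and 0.4 in the exact test of edgeR, FDR 0.05, a log2 ratio of at least 1, and 0.5 added to counts. Python 3.11.15, scipy 1.17.1, R 4.3.3, edgeR 4.0.16 and DESeq2 1.42.0 were used, and the Fisher step was tested on simulated data. The members and gene lists were chosen with earlier results of these data known. Beside the members and SOX2, the rule named list genes past FDR 0.001, up to 8 per list by size of the log2 ratio where both libraries had more than 3 tags, and genes at 0 in 1 library with 12 or more tags in the other. Of the genes this rule named, 1 in the E2F target list is not reported here by name or value and stays in that list's counts and median.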

Additional observations from a re-analysis of the deposited data

How the results depend on the processing

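No paired analysis was possible because there was 1 library for each condition, and no library could be left out. Over all genes 2849 passed FDR 0.001, and between 2786 and 3018 with the other scalings, with 10 tags as a minimum or with Audic and Claverie's test. Lower calls were 56.1% of the calls with gene tags, 49.4% with TMM factors, 49.7% with the median of ratios and 66.6% with clean tags, and the median log2 ratio of genes with at least 20 tags was -0.10, -0.03, -0.03 and -0.22. Among the 10 members the count was 3, from 2 (Audic and Claverie) to 4 (10 tags or more, with CCNE1 added). In edgeR's exact test with an assumed coefficient of 0.1, 1166 genes passed, of which 0 were members (3 at an unadjusted p under 0.05), 2 other G1/S control genes, 1 an E2F target gene and 0 S to M genes (3 at an unadjusted p under 0.05). With 0.2, 113 genes passed and 0 of each list, with 2 members, 4 other G1/S control genes, 5 E2F target genes and 0 S to M genes at an unadjusted p under 0.05. With 0.4, 0 genes passed, with 627 at an unadjusted p under 0.05, 1 of them a member and 0 of the other lists. With FDR 0.05, 4902 genes passed, 5 of them members and 4 S to M genes. With a log2 ratio of at least 1 also required, 1570 genes passed, of which 1 was a member, 3 were other G1/S control genes, 4 E2F target genes and 0 S to M genes. The counts follow from the assumed spread or the threshold. Of 50 member values under alternatives, 42 kept their direction and side of the threshold. Part of this was fixed in advance. With 0.5 added to each count the calls were those of the main test, so the side of the threshold could not change. With the assumed coefficient of 0.2 the log2 ratios were the main ones, so the direction could not change. CDKN1B turned to -0.10 with clean tags, CCND3 lost its call with TMM factors and the median of ratios, CCNE1 gained one with both, and with an assumed coefficient of 0.2 CCND3, CDK6 and E2F2 lost theirs. With 0.5 added to each count, the log2 ratio of E2F2 was 4.78. Depth limits CCNE2 and E2F2 most, where a call as higher needed a ratio of 5.28 and 4.40 and no lower count could be called.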

Other observations

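The cyclins and regulators of S phase to mitosis were read from a list of 10 genes, all measured. Of these, 2 (20%) passed FDR 0.001 in Fisher's exact test, against 21.7% of the whole table. Both were called as lower under the shRNA-SOX2 label, as were 12.2% of all genes, while 9.53% were called as higher. CCNB1, the mitotic cyclin that activates CDK1, had 238 tags in the shRNA-Con library against 134 in that labelled shRNA-SOX2, a log2 ratio of -0.69 (adjusted p = 4.57e-05 in Fisher's exact test). CDC25B, a phosphatase that activates CDK1 complexes, had 344 and 202 tags, a log2 ratio of -0.63 (adjusted p = 4.56e-06 in Fisher's exact test). All 10 had at least 20 tags, whereas the share of the whole table also counts genes with fewer, so it is not one at like depth. The median log2 ratio of the 10 genes was -0.33, against -0.10 over all genes with at least 20 tags. The other 8 genes, whose ends are named after their values were seen, had log2 ratios from -1.54 for CDC20, with 16 and 5 tags, to 0.77 for CCNF, with 22 and 34 tags.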
